A study of Rattus norvegicus with 8 samples.

Results

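The genes described here carry out antigen presentation by class II molecules of the major histocompatibility complex (MHC, called RT1 in the rat). They were chosen by name as 9 genes: Cd74, Ciita, RT1-Ba, RT1-Bb, RT1-Da, RT1-Db1, RT1-DMa, RT1-DMb and Ctss. Array probes were assigned through their RefSeq accessions, which gave 13 probes for 8 of the 9 genes and matched none to RT1-DMb. Of these, 12 probes for 7 genes passed the filter on dim probes and were tested, among 25122 genes tested in all.

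RNA was measured in the liver of male Wistar/ST rats on Agilent arrays of 1 colour. In the Eucommia group (4 arrays) the rats drank an extract of Eucommia ulmoides leaves, and in the control group (4 arrays) they drank none. Both groups, controls included, ate a high-fat diet and had high-fructose water for 5 weeks. The age of the rats is not given in the sources used here. The comparison asks which liver genes differ with the leaf extract in rats on this diet.

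Class II molecules are pairs of an alpha and a beta chain that show peptides from endosomes and lysosomes to CD4+ T cells. The invariant chain Cd74 fills the groove of a new pair and leads it to the endosome, where proteases, cathepsin S among them, cut it down. The RT1-DM pair then helps to exchange the remaining fragment for a peptide. Transcription of these genes depends on the coactivator Ciita, which binds no DNA itself and joins factors held at their promoters. In liver, class II molecules are known from Kupffer cells, dendritic cells, B cells and sinusoidal endothelium rather than from resting hepatocytes.

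Values are log2 signals minus the 75th percentile of the same array, so 0 is the signal at that percentile, and differences are Eucommia minus control. Levels are not compared between probes. A call is an adjusted p under 0.05 in limma, adjusted over all genes tested. All Eucommia arrays lay on 1 slide and all control arrays on another, so the slide and the drink cannot be told apart. On the Eucommia arrays 70.7% ± 1.16 of spots were well above background, against 59.8% ± 1.17 on the control arrays (SD, n = 4 each). Of all genes 4611 were called higher and 1567 lower, so 74.6% of calls were higher. That share was 58.8% with quantile normalization and 59.6% with normexp background correction, which was also followed by quantile normalization. It was 31.9% with median centring, where the median difference over all genes was -0.24, against 0.02 with the 75th percentile. Hepatocyte transcripts such as Alb (albumin) and Ttr (transthyretin) were well above background on all 8 arrays.

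Of the 7 class II genes tested, 1 was called lower in the Eucommia group and 0 higher, by the brightest probe of each. Over all genes 6.24% were called lower and 18.4% higher. All of the 7 but Ciita had a mean signal above the 75th percentile. Of the 9262 genes with such a mean, 553 were called lower and only 365 higher. When every probe was tested, 4 of the 12 class II probes were called lower and 0 higher, where 6.46% of all probes were lower and 17.4% higher. Of these 4, the RT1-Bb probe passed the filter on dim probes through the control group, where it is high, and was above background on 1 Eucommia array, so it had to differ. The gene called was Cd74. The other 6 did not pass, and their values ran from -0.64 for Ciita to 0.01 for RT1-DMa. Values were below 0 in 6 of the 7 genes, where 47.6% of all genes tested and 57.8% of those with a mean signal above the 75th percentile were below 0. The median over the 7 genes was -0.32, against 0.02 over all genes tested and -0.04 over the 9262 genes with a mean signal above the 75th percentile. The arrays measure whole liver, so fewer class II cells and less class II RNA per cell cannot be told apart.

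**Figure D1:**
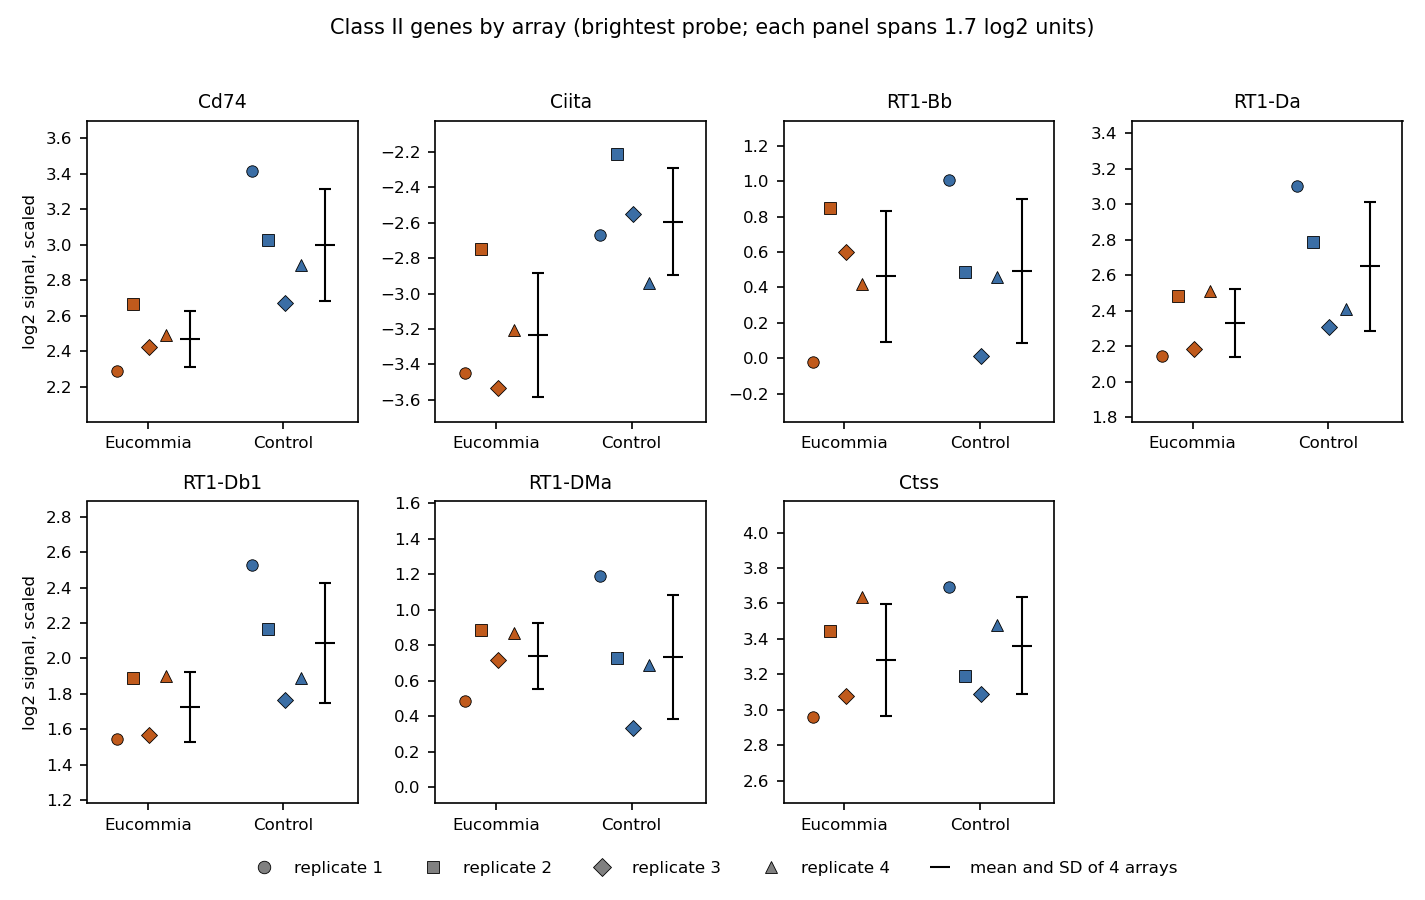
Log2 signal minus the array's 75th percentile for the brightest probe of each of the 7 tested class II genes, with the Eucommia arrays left and the control arrays right in each panel; symbols are replicates, and bars are the mean and SD of 4 arrays. The groups are apart only for Cd74 among these 7 genes, and control replicate 1 is the highest array in 6 of the 7 panels.

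Cd74, the invariant chain, had log2 signals of 2.29, 2.67, 2.43 and 2.49 on Eucommia arrays 1 to 4, against 3.41, 3.02, 2.67 and 2.89 on control arrays 1 to 4. The groups did not overlap, although the highest Eucommia array (2.666) and the lowest control array (2.671) nearly met. Cd74 averaged 2.47 ± 0.16 in the Eucommia group and 2.999 ± 0.31 in the control group (SD, n = 4 each). It fell by 0.53 ± 0.16 on the log2 scale (SE, adjusted p = 0.0433), to 69.2% of the control level, with a 95% interval of the difference from -0.90 to -0.16. Among all genes 8.81% had Eucommia arrays entirely below the control arrays and 19.8% entirely above. Control replicate 1 was the highest array, and without it the difference was -0.39 and was not called (adjusted p = 0.0662). Of the 8 fits without a single array, 1 kept the call, that without control replicate 3 (-0.64), and adjusted p ranged from 0.0191 to 0.108.

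Ciita, the coactivator on which class II transcription depends, had -3.45, -2.75, -3.53 and -3.21 on the Eucommia arrays, against -2.67, -2.21, -2.55 and -2.94 on the control arrays. Eucommia replicate 2 lay above control replicate 4, so the groups overlapped by those arrays. Its mean was -3.23 ± 0.35 in the Eucommia group and -2.59 ± 0.30 in the control group (SD, n = 4 each). The difference of -0.64 ± 0.21 (SE, 95% interval -1.11 to -0.17) missed the threshold (adjusted p = 0.0520). It was called under 9 of 21 alternatives, among them quantile normalization (-0.89, adjusted p = 0.00982) and cyclic loess (-0.84, adjusted p = 0.0110). With normexp background correction (an offset of 50 on every signal, then quantile normalization) the difference was -0.24 and was called (adjusted p = 0.0330). The offset shrinks differences of dim signals most, and the quantile step is shared with the first of these settings. Of the 8 fits without a single array 2 called Ciita, those without control replicate 4 or Eucommia replicate 2. Adjusted p ranged from 0.0168 to 0.128 in those 8 fits. Ciita was not called with array weights (adjusted p = 0.0778) or with the percentile over probes bright on all arrays (adjusted p = 0.0692). It was dim, although well above background on all 8 arrays.

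The class II chain genes are shown first by the stretch of promoter that Ciita is known to act through. Class II promoters carry an X box, bound by the RFX complex and CREB, and a Y box, an inverted CCAAT bound by NF-Y, just before the start of the gene. The 150 bases before the annotated start of each gene are given 5′ to 3′ on the gene's own strand from RefSeq (GRCr8). Matches to the X motif GNNAC followed at once by NGATG and to the Y motif TGATTGG are in capitals. Of the 5 promoters shown all held the Y motif and 4 held the X motif.
RT1-Da (chr20:4515265-4515414, + strand): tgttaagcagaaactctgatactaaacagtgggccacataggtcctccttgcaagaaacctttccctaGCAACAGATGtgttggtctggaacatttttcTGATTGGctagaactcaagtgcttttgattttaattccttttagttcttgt
RT1-Db1 (chr20:4560163-4560312, - strand): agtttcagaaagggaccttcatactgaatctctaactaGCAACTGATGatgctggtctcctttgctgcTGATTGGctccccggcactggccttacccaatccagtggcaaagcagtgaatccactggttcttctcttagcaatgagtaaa
RT1-Bb (chr20:4604119-4604268, - strand): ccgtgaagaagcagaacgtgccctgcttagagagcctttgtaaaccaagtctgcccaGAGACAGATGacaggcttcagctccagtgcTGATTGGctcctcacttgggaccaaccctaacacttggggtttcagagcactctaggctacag
RT1-DMa (chr20:4712336-4712485, - strand): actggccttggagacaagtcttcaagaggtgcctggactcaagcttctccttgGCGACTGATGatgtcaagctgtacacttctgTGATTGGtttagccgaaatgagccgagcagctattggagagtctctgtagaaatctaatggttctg
RT1-Ba (chr20:4576907-4577056, + strand): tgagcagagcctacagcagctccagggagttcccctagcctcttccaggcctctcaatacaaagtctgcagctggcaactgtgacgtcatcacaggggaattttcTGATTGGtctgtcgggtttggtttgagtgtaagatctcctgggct

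The X motif lay 20 or 21 bases before the Y motif in RT1-Da, RT1-Db1, RT1-Bb and RT1-DMa, and RT1-Ba held the Y motif without these letters of the X motif. RefSeq promoters were matched for 7 of the 9 genes, and the 250 bases before each start were searched on both strands, where the motifs did not overlap. The Y motif was in 5 of the 7 and the X motif in 4 of the 7, and neither was in Cd74 or Ctss. Boxes written with other letters were not searched for, so a gene without a match may still hold such a box. Over all 33469 promoters 6.42% held the Y motif and 2.26% the X motif. An X motif followed by a Y motif after 10 to 30 bases was in 7 promoters, or 0.0209%. They were those of the 4 genes above and of RT1-Db2, RT1-DOb and Hsd17b7. The motif letters and the gap were written with the class II promoters in view, so their count among these genes is a description. A match is not evidence of binding in these livers.

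RT1-Da encodes the alpha chain of the RT1-D molecule, the rat counterpart of HLA-DR. By its brightest probe it had 2.15, 2.48, 2.18 and 2.51 on the Eucommia arrays, against 3.10, 2.79, 2.31 and 2.41 on the control arrays. The groups overlapped, with control replicates 1 and 2 above every Eucommia array. The difference of -0.32 ± 0.19 (SE, 95% interval -0.74 to 0.10) was not called (adjusted p = 0.256). The dimmer probe of RT1-Da had -0.80, -0.25, -0.38 and -0.56 on the Eucommia arrays, against 0.82, 0.14, -0.26 and 0.18 on the control arrays. There the overlap was of 1 pair of arrays (-0.25 in Eucommia replicate 2, -0.26 in control replicate 3), and the difference of -0.72 ± 0.22 (SE) passed when every probe was tested (adjusted p = 0.0466). It passed in 1 of 8 fits without a single array, that without control replicate 3 (-0.88, adjusted p = 0.0165).

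RT1-Db1 encodes the beta chain that pairs with RT1-Da. Its brightest probe had 1.55, 1.89, 1.57 and 1.90 on the Eucommia arrays, against 2.52, 2.17, 1.76 and 1.89 on the control arrays, which overlapped. The difference of -0.36 ± 0.18 (SE, 95% interval -0.76 to 0.04) was not called (adjusted p = 0.185). The next probe in brightness had 1.101, 1.01, 0.78 and 0.72 on the Eucommia arrays, against 2.10, 1.72, 1.23 and 1.396 on the control arrays, and these groups did not overlap. By that probe RT1-Db1 fell by 0.71 ± 0.19 (SE, adjusted p = 0.0259 over all probes), and 5 of 8 fits without a single array kept the call. It was lost without control replicate 2, Eucommia replicate 3 or Eucommia replicate 4, with an adjusted p of up to 0.0696. The dimmest probe was well above background on 3 Eucommia arrays and 1 control array, and its value of 0.52 ± 0.50 (SE) did not pass (adjusted p = 0.507). Both bright probes of RT1-Db1 and both of RT1-Da thus had negative differences, with the call depending on the probe.

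**Figure D2:**
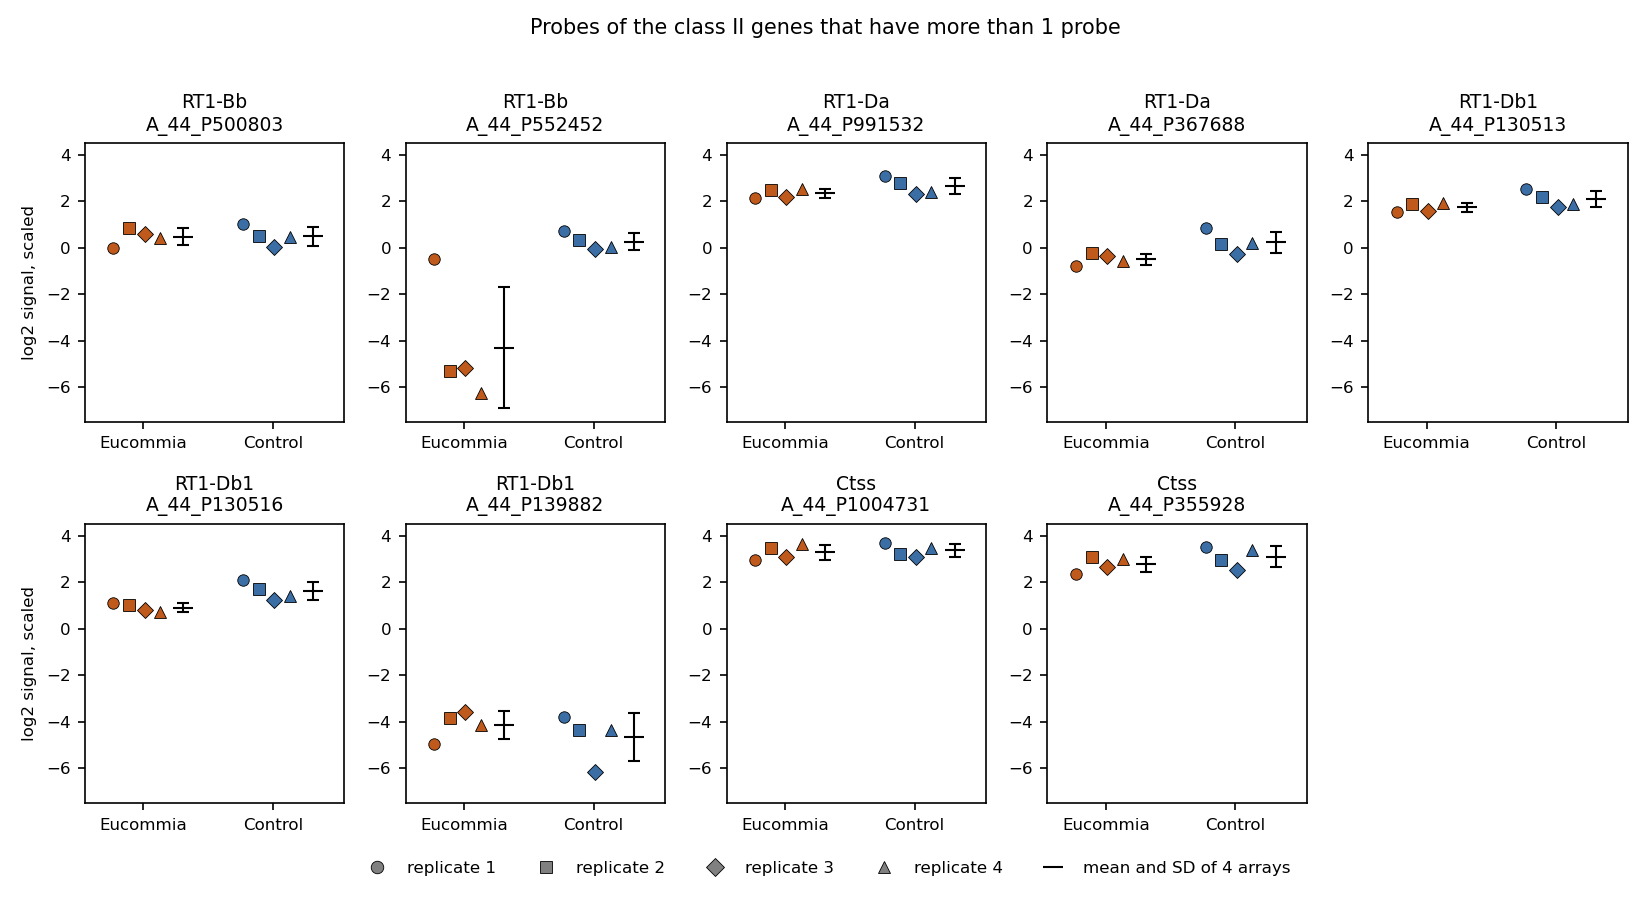
Log2 signal minus the array's 75th percentile for each probe of the 4 class II genes with more than 1 probe, with the Eucommia arrays left and the control arrays right; symbols are replicates, and bars are the mean and SD of 4 arrays. In the second RT1-Bb panel Eucommia replicates 2, 3 and 4 lie at -5.30, -5.16 and -6.26 while Eucommia replicate 1 and the 4 control arrays lie between -0.49 and 0.73.

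RT1-Bb, the beta chain of the RT1-B molecule, is the counterpart of HLA-DQ beta. Its probes disagreed. By the brighter probe the Eucommia arrays had -0.02, 0.85, 0.60 and 0.42, against 1.004, 0.49, 0.01 and 0.46 on the control arrays, with both groups over nearly the same range. The difference was -0.03 ± 0.24 (SE, adjusted p = 0.945), and its 95% interval from -0.57 to 0.51 leaves room for changes of the size seen in Cd74. By the other probe the Eucommia arrays had -0.49, -5.30, -5.16 and -6.26, against 0.73, 0.31, -0.08 and 0.05 on the control arrays. Eucommia replicates 2, 3 and 4 were not well above background there, while Eucommia replicate 1 and all 4 control arrays were. The fitted difference of -4.55 ± 1.09 (SE, adjusted p = 0.0151) therefore joins 1 measured Eucommia array with 3 at the floor, and its size has no meaning as a fold.

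That split of the arrays was looked for among all 41012 probes after it had been seen. Only 3 probes were well above background on the control arrays and Eucommia replicate 1, not well above background on Eucommia replicates 2, 3 and 4, and higher on each of the first 5 arrays than on any of the other 3. They were the RT1-Bb probe, a probe of the class I gene RT1-A3 and a probe whose accession matched no gene in the table. RT1-A3 had -2.45, -7.45, -7.10 and -7.28 on the Eucommia arrays, against -1.95, -1.65, -1.90 and -1.68 on the control arrays. The gap between the lowest of the 5 and the highest of the other 3 was 4.67 for the RT1-Bb probe, 4.64 for RT1-A3 and 2.19 for the unnamed probe. Both named probes thus belong to RT1 genes, the MHC region of the rat, which is known as one of its most variable regions between strains. A probe's signal depends on how well its sequence matches the RNA as well as on the RNA level, and this holds for every RT1 probe described here. The RT1 alleles of these rats were not analysed here, and their part in the RT1 values was not tested.

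RT1-Ba, the alpha chain that pairs with RT1-Bb, was not well above background on any of the 8 arrays by its single probe. Its signals were -7.24, -7.23, -6.45 and -7.08 on the Eucommia arrays, against -5.36, -6.32, -5.05 and -6.23 on the control arrays. The lowest signal on an array also differed between the groups (1.17 ± 0.026 raw units on Eucommia arrays and 2.51 ± 0.21 on control arrays, SD, n = 4 each), so no fold is given.

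RT1-DMa, the alpha chain of the RT1-DM pair that edits the bound peptide, had 0.49, 0.89, 0.72 and 0.87 on the Eucommia arrays, against 1.19, 0.73, 0.33 and 0.69 on the control arrays. The Eucommia arrays lay within the range of the control arrays, and the difference was 0.01 ± 0.18 (SE, 95% interval -0.40 to 0.42, adjusted p = 0.986). Ctss, the protease cathepsin S, had 2.96, 3.45, 3.08 and 3.64 on the Eucommia arrays, against 3.69, 3.19, 3.09 and 3.48 on the control arrays by its brighter probe. Its groups overlapped widely, with a difference of -0.08 ± 0.19 (SE, 95% interval -0.51 to 0.35, adjusted p = 0.797), and its dimmer probe had -0.32 ± 0.25 (adjusted p = 0.393). These intervals do not exclude a decrease of 0.40 in RT1-DMa or of 0.51 in Ctss on the log2 scale.

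The arrays came in much the same order in most of the class II genes. Control replicate 1 was the highest of the 8 arrays in 6 of the 7 genes, with Ciita as the exception, and Eucommia replicate 1 was the lowest in 5 of the 7. Within the control group replicate 3 was the lowest in 6 of the 7 genes. The likeness of profiles was measured as the root mean square difference of the 8 log2 values from those of Cd74, with each gene centred on its own mean. Among 8458 named genes well above background on all arrays, the 5 nearest to Cd74 were P2ry6 (0.0762), RT1-Db1 (0.116), Apobec1 (0.122), Kcnk13 (0.122) and Ttc8 (0.128), where the median over all was 0.368. RT1-Da came at rank 8 with 0.139. P2ry6, a nucleotide receptor, had -0.74, -0.21, -0.55 and -0.41 on the Eucommia arrays, against 0.38, 0.07, -0.21 and 0.08 on the control arrays, and fell by 0.56 ± 0.15 (SE, adjusted p = 0.0291). Ttc8, a part of the BBSome of cilia, fell by 0.54 ± 0.17 (SE, adjusted p = 0.0475). The RNA-editing enzyme Apobec1 (-0.43, adjusted p = 0.0675) and the potassium channel Kcnk13 (-0.40, adjusted p = 0.0893) were not called.

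This likeness includes the difference between groups, so the falls of P2ry6 and Ttc8 follow in part from how they were picked. They are no result apart from that of Cd74. With each group's mean removed, an alternative added after the values had been seen, RT1-DMa came at rank 3 (0.0629), RT1-Db1 at rank 7 (0.0778) and RT1-Da at rank 13 (0.0919) of 8458, where the median was 0.259. RT1-Bb came at rank 279, Ctss at 608 and Ciita at 5959. Without control replicate 1 the ranks of RT1-DMa, RT1-Db1 and RT1-Da were 12, 49 and 106, while RT1-Bb came at 2610, Ctss at 4107 and Ciita at 6110. RT1-DMa, whose group means were 0.74 ± 0.19 in the Eucommia group and 0.74 ± 0.35 in the control group (SD, n = 4 each), thus followed Cd74 from array to array within the groups without its difference between them. Whether Cd74 and RT1-DMa differ in their response was not tested.

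**Figure D3:**
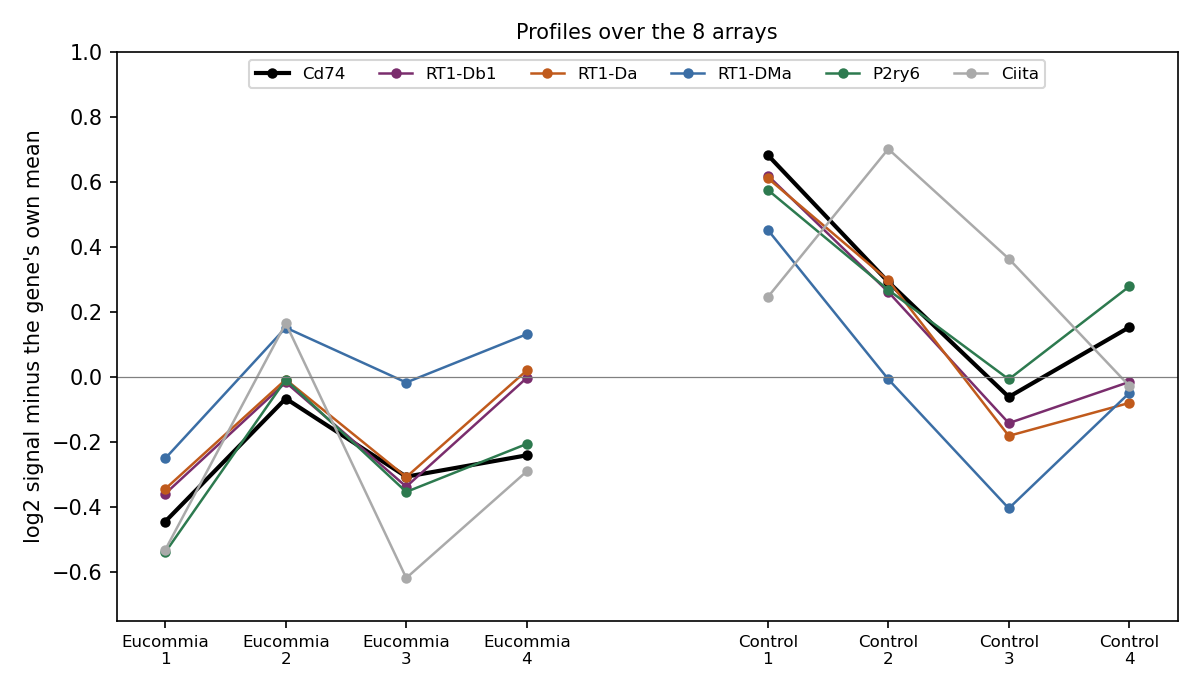
Log2 signal minus the gene's own mean over the 8 arrays for Cd74, RT1-Db1, RT1-Da, RT1-DMa, P2ry6 and Ciita (brightest probes), with the Eucommia arrays left and the control arrays right; lines only join points of a gene, since replicates have no order. RT1-Db1, RT1-Da and P2ry6 stay near Cd74 on most arrays, while Ciita departs from it.

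Genes that work beside class II molecules were described from lists. Of the processing and peptide editing genes, 15 of the 17 with a probe were tested, with 2 called lower and 0 higher. Over all genes 6.24% were called lower and 18.4% higher, and 8.81% had Eucommia arrays entirely below the control arrays. Of the 15 values 13 were below 0, with a median of -0.17. Below 0 were 47.6% of all genes and 57.8% of those with a mean above the 75th percentile. Of the 9262 genes with such a mean, 553 were called lower and 365 higher. Lamp2, a membrane protein of lysosomes, had 3.64, 3.68, 3.88 and 3.60 on the Eucommia arrays, against 4.28, 4.06, 4.24 and 4.33 on the control arrays, and every Eucommia array lay below every control array. It fell by 0.53 ± 0.10 (SE, adjusted p = 0.00488) and was called under all 21 alternatives. Lgmn, the endosomal protease legumain, had 2.25, 2.37, 2.24 and 2.19 on the Eucommia arrays, against 3.07, 2.53, 2.50 and 3.07 on the control arrays, also without overlap. It fell by 0.53 ± 0.15 (SE, adjusted p = 0.0349), a call kept in 2 of 8 fits without a single array, those without control replicate 2 or 3. It was lost with quantile normalization (-0.49, adjusted p = 0.0513), cyclic loess (-0.49, adjusted p = 0.0535) and the percentile over probes bright on all arrays (-0.496, adjusted p = 0.0509).

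The other processing genes did not pass. The cathepsin gene Ctsz had -0.47 ± 0.17 (SE, adjusted p = 0.0760), and the ubiquitin ligase gene Marchf1, known to act on class II molecules, had -0.33 ± 0.12 (adjusted p = 0.0697). Sppl2a, the protease known to clear the membrane stub of Cd74, had -0.17 ± 0.10 (adjusted p = 0.261). Ifi30, a lysosomal reductase, had -0.09 ± 0.09 (adjusted p = 0.540), and Ctsl, another lysosomal cathepsin, had 0.01 ± 0.11 (adjusted p = 0.953). RT1-DOa and RT1-DOb, the pair that restrains RT1-DM, were not well above background on any array.

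Of the genes for class II transcription and the interferon-gamma signal, 13 of the 15 with a probe were tested, with 1 called lower, 0 higher and a median of 0.00319. The count of 1 lower is near the share of all genes called lower (6.24%), and 18.4% were called higher. Jak1, a kinase of the interferon receptors, had 0.10, 0.02, 0.09 and -0.14 on the Eucommia arrays, against 0.40, 0.34, 0.30 and 0.45 on the control arrays. The groups did not overlap, as for 8.81% of all genes in that direction, and Jak1 fell by 0.36 ± 0.09 (SE, adjusted p = 0.0193). Without Eucommia replicate 2 it was not called (adjusted p = 0.0535), and with the mean over its probes or median centring the difference was -0.69 or -0.62. The DNA-binding partners of Ciita did not pass: Rfxap had 0.07, Rfxank 0.13, Creb1 0.14, Nfyb -0.18, Nfyc 0.06 and Nfya 0.37 (adjusted p = 0.0549). The transcription factor Irf1 had -0.25 and the receptor chain Ifngr1 -0.31, also without a call. Ifng itself was not well above background on any array.

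**Figure D4:**
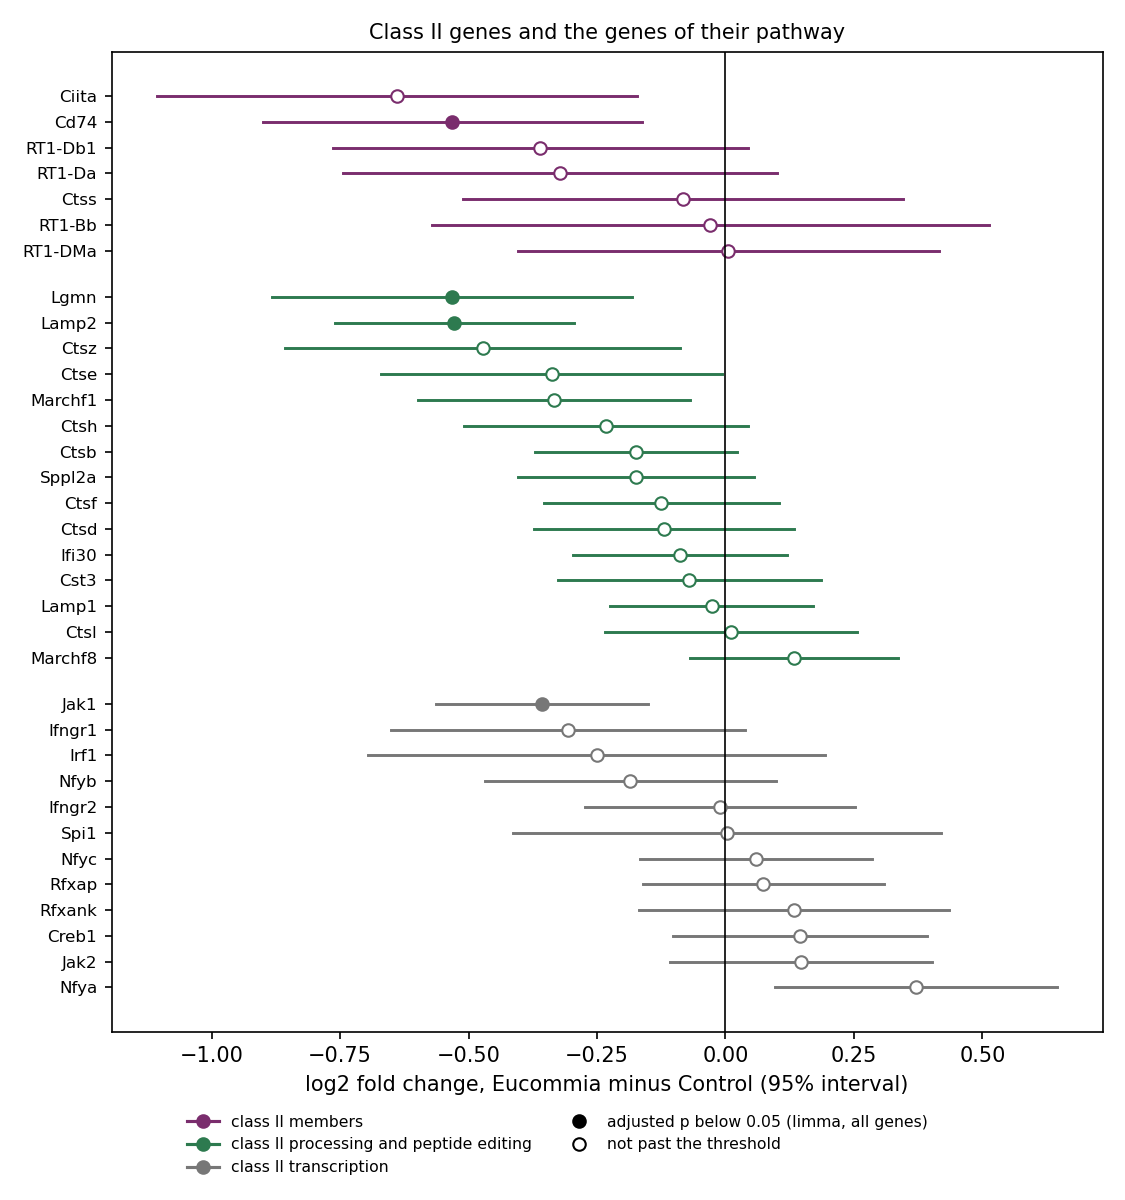
Log2 fold change, Eucommia minus control, with its 95% interval, for the 7 class II genes, 15 processing genes and 12 of the 13 transcription genes tested, from the brightest probe of each; filled points are called. The 4 filled points are Cd74, Lgmn, Lamp2 and Jak1, all below 0.

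Among genes for recognition of class II, costimulation and the Cd74 ligand, 6 of the 11 with a probe were tested and 0 were called by limma, with 1 at an unadjusted p under 0.05. Cd86, a costimulatory ligand, had -1.02 ± 0.39 (SE, adjusted p = 0.0908) and was well above background on 4 of 8 arrays. Mif, the cytokine that binds Cd74, had 6.21 ± 0.23 in the Eucommia group and 5.99 ± 0.21 in the control group (SD, n = 4 each) and was not called (adjusted p = 0.348). Cd4 and Lag3, which bind class II molecules on T cells, did not pass the filter on dim probes.

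Markers of the cells that can carry class II molecules were read beside these values. All 16 macrophage and Kupffer cell markers tested had values below 0 (median -0.40), as had 47.6% of all genes and 57.8% of those with a mean above the 75th percentile, and 0 of them were called by limma, with 2 at an unadjusted p under 0.05. The smallest p-values were those of Marco, a scavenger receptor (-1.098 ± 0.38 SE, adjusted p = 0.0653), and Aif1, a macrophage protein (-0.52 ± 0.18, adjusted p = 0.0712). Control replicate 1 was the highest array for 11 of the 16 markers and Eucommia replicate 1 the lowest for 11, the arrays that were highest and lowest for most class II genes. This was not particular to macrophage markers. The same arrays had the highest and lowest summed signals for markers of all leukocytes (24.4 and 15.7) and of sinusoidal endothelium (141 and 99.3). Lyz2, a lysozyme gene among the 16 macrophage markers, varied most between arrays. It had 4.53, 5.75, 1.61 and 1.79 on the Eucommia arrays, against 2.37, 5.26, 2.25 and 5.33 on the control arrays.

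Summed over the 16 macrophage markers, with each array's 75th percentile as 1, the signal was 122 to 225 on Eucommia arrays and 151 to 255 on control arrays. Such a sum follows mostly the brightest probes of its list. Without Lyz2, an alternative added after the values had been seen, the other 15 markers summed to 110 to 171 on Eucommia arrays and 147 to 230.5 on control arrays. Control replicate 1 then had the highest sum and Eucommia replicate 1 the lowest (110), as for the class II genes, while with Lyz2 they were control replicate 4 (255) and Eucommia replicate 3 (122). The 7 class II genes summed to 22.5 to 30.8 on Eucommia arrays and 25.7 to 42.4 on control arrays. Between the extremes the order of the arrays differed from that of the 15 markers. Control replicate 4 lay above control replicate 2 for the 15 markers (215 and 147), but below it for class II (30.7 and 31.95). Markers of all leukocytes summed to 15.7 to 21.3 on Eucommia arrays and 20.04 to 24.4 on control arrays. Within that list of 6 the calls went both ways, with the phosphatase Ptprc higher by 0.80 ± 0.14 (SE, adjusted p = 0.00232) and the actin-bundling Lcp1 lower by 0.87 ± 0.21 (adjusted p = 0.0150). Over all genes 18.4% were called higher and 6.24% lower. With normexp Lcp1 had -0.37 and was still called. The Ptprc call was lost with normexp (0.19) and with the mean over its 3 probes, with an adjusted p of up to 0.382. The part of macrophage or leukocyte content in the class II values was not tested.

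**Figure D5:**
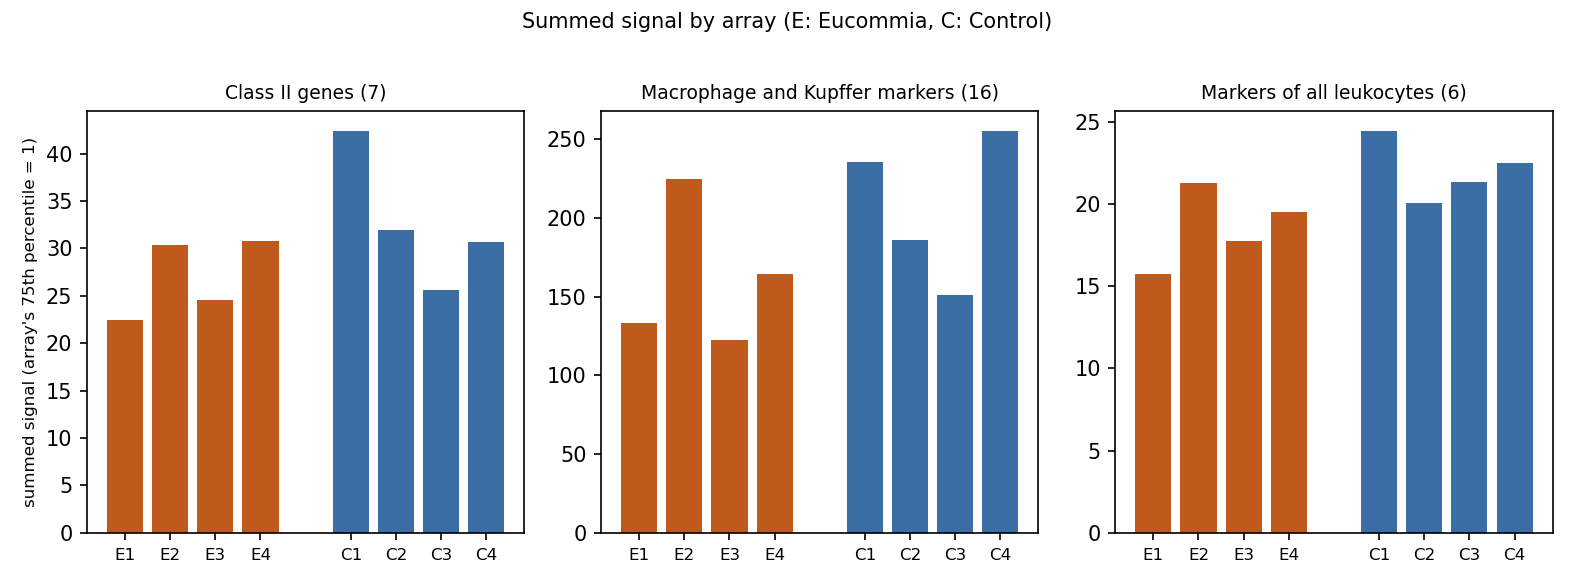
Summed signal by array, with the array's 75th percentile as 1, for the 7 class II genes, 16 macrophage and Kupffer cell markers and 6 markers of all leukocytes; Eucommia arrays are E1 to E4 and control arrays C1 to C4. Control replicate 1 has the highest class II sum (42.4), and control replicate 4 the highest macrophage sum (255), of which Lyz2 is 40.3; without Lyz2 control replicate 1 is highest (230.5).

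The other carriers of class II molecules were dim or mixed. Of 11 dendritic cell markers 6 had a probe and 4 were tested, with Ccr7, a homing receptor, called higher (1.15 ± 0.25 SE, adjusted p = 0.00862) and 0 lower. Over all genes 18.4% were called higher. Ccr7 was above background on 4 Eucommia arrays and 1 control array, so it passed the filter through the group where it is high, and the size of its difference is not a measured fold. With normexp Ccr7 had 0.13 and was not called (adjusted p = 0.101). Fscn1 (0.65), another of the 4, was above background on 4 Eucommia arrays and 0 control arrays. It too passed the filter through the group where it is high. The 4 markers tested summed to 0.677 to 0.904 on Eucommia arrays and 0.608 to 1.19 on control arrays. Of 13 B cell and plasma cell markers 8 had a probe and 6 were tested, with 0 called by limma and 0 at an unadjusted p under 0.05. Cd22 had -0.32 ± 0.17 and Cd37 -0.15 ± 0.11, and the sums were 0.880 to 0.929 on Eucommia arrays and 0.799 to 1.17 on control arrays. The complement receptor gene Cr2, a B cell marker, was above background on 0 of the 8 arrays.

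Of the 7 sinusoidal endothelium markers tested 5 were below 0, where 47.6% of all genes were. The 7 summed to 99.3 to 114 on Eucommia arrays and 116 to 141 on control arrays. Most of that sum came from the bright probes of Kdr (mean 6.13 in the Eucommia group, 6.39 in the control group) and Fcgr2b (4.61 and 5.06). Kdr was not called (-0.26 ± 0.10 SE, adjusted p = 0.0982). Pecam1 had 1.09 (adjusted p = 0.0634) and was above background on 0 control arrays. Over all genes 6.24% were called lower and 18.4% higher. The inhibitory antibody receptor Fcgr2b was called lower (-0.45 ± 0.11 SE, adjusted p = 0.0168) and the junction protein Cdh5 higher (1.01 ± 0.09, adjusted p = 4.00e-05). The Fcgr2b call was lost without Eucommia replicate 1 or 3 (adjusted p of up to 0.0503), and with median centring it had -0.71. The T and NK cell markers, on the other side of the class II contact, had Cd3d (0.85 ± 0.12 SE) and Lck (1.12 ± 0.12) called higher among 10 tested. That is near the share of all genes called higher (18.4%). Of the 10 values 3 were below 0, where 47.6% of all genes were, and the median was 0.08. Among the 10 was Ncr1 (0.68), above background on 4 Eucommia arrays and 0 control arrays. It passed the filter through the group where it is high. The 10 markers summed to 4.35 to 5.07 on Eucommia arrays and 2.99 to 4.38 on control arrays. With normexp the differences were 0.40 for Cdh5 and 0.40 for Lck, both still called. The 10 hepatocyte markers had 1 called lower, the iron carrier Tf (-0.55 ± 0.11 SE), where 6.24% of all genes were called lower. Of the 10 values 8 were below 0, with a median of -0.18. Of all genes with a mean above the 75th percentile 57.8% were below 0. The sums of the 10 hepatocyte markers were 4055 to 4722 on Eucommia arrays and 4636 to 5254 on control arrays, so these markers also leaned lower. The part of these cell types in the class II values was not tested.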

How the data were processed

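Liver RNA (500 ng labelled per array) of 4 Eucommia and 4 control samples was measured on 1-colour (Cy3) arrays, per the labels' protocols. The deposited scanner files hold intensity values from Agilent Feature Extraction 10.1.1.1, background-subtracted and detrended within the array and not normalized between arrays, per the file headers (software version also per the submitters' notes). Flags in the deposited files, another kind of value than intensities, mark control, outlier, saturated and well-above-background spots. The deposited series table held the same values for 100% of 43379 spots that are not controls.

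Signals were put on the log2 scale, minus each array's 75th percentile. Control and outlier spots were left out, spots of a probe averaged, and probes kept if well above background on at least 4 of 8 arrays (27717 of 41012). Accessions were matched without versions to RefSeq (GRCr8), naming 16336 probes. A gene is its brightest kept probe, and an unnamed probe stands alone. limma 3.58.1 in R 4.3.3 compared the groups, 2-sided, with Benjamini-Hochberg adjustment over all 25122 genes, or over all kept probes where said. Replicates are numbered samples, and nothing states that each came from a separate rat, so p-values reflect only how these samples spread, which may be technical, and their number limits precision. On simulated arrays (25122 genes, 50 changed at each size tried) the test called 64% of genes lowered by 1 and 12% of those lowered by 0.5 (log2). Far fewer genes changed there than were called in the data, which makes the adjustment stricter. These shares are therefore not the sensitivity of the test in the data.

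The genes, lists and rules were chosen with earlier results of these data known. Named genes are all 9 class II genes, of each other list those called or else the 2 with the smallest p, and the 5 nearest to Cd74. Other processing, transcription and recognition genes and other markers were named for their known roles or their weight in a sum, with their values in view. Replicate numbers did not pair the samples (correlations of same-numbered deviations -0.104 to -0.0285). Alternatives were other scalings, background correction, filters, probe rules, variance models, the replicate block and each array left out. A slide block could not be fitted. Some listed genes are counted but not reported here by name.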

Additional observations from a re-analysis of the deposited data

How the results depend on the processing

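The number of class II genes called lower was 1 and depended on the processing. It was 4 with median centring, 3 without a filter on dim probes (RT1-Ba included, which was above background nowhere), and 2 with normexp, with trended robust variance or with the mean over probes, where the second gene was RT1-Bb (-2.29, adjusted p = 0.0102) through its probe at the floor on 3 Eucommia arrays. It was 0 with array weights or with the percentile taken over probes bright on all arrays, and ranged from 0 to 1 when 1 array was left out. Where the number stayed at 1 under quantile normalization, cyclic loess and the replicate block, the gene was Ciita in place of Cd74. The gene called was also Ciita without control replicate 4 and without Eucommia replicate 2, and Cd74 without control replicate 3. The other fits without a single array called none. Cd74 stayed negative under all 21 alternatives (-0.79 to -0.39) and was called under 9, and Ciita also stayed negative (-0.90 to -0.24). Cd74 has 1 probe, so several of these alternatives could not change its difference of -0.53. They were the series table, both changes of the filter, the mean over probes and every probe on its own. Their calls (adjusted p 0.0408 to 0.0443) repeat the main fit. With the replicate number as a block, 5148 genes were called in all, and the calls of Cd74 (adjusted p = 0.0906), Lgmn (0.0781), Jak1 (0.0823), Lcp1 (0.0609) and Fcgr2b (0.0512) were lost.

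The count of all genes called was 6178. It was 11815 with median centring, 12806 without the filter and 3719 among genes above background on all arrays, where fewer genes were tested. It ran from 4952 to 5766 without single arrays. RT1-Bb changed sign with the percentile over bright probes (0.0062) and array weights (0.078), and ranged from -0.19 to 0.14 without single arrays. RT1-DMa changed sign with median centring (-0.25) and ranged from -0.13 to 0.16 without single arrays. Ctss ranged from -0.20 to 0.028 in those fits. The causes were not tested. Dim probes limit RT1-Ba, Ciita and the dimmest RT1-Db1 probe.
The replicate numbers did not pair the samples.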
